A study of Homo sapiens with 36 samples.

Results

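The 35 human genes described here encode the machinery of homologous recombination, the Fanconi anaemia pathway and the checkpoint kinases that signal DNA breaks and stalled replication forks. They were chosen by name, with earlier results of these data known, and all 35 were found among the 57500 Ensembl gene IDs of the count table. Expression was measured by sequencing polyA RNA of OE33 and FLO1, both human oesophageal adenocarcinoma lines, with 3 libraries in each of 12 groups. In each line the cells had been stably transduced with shAPE1#1, with shAPE1#3 or with a non-targeting shRNA (shControl); both shAPE1 hairpins target APEX1, which encodes the base excision repair endonuclease APE1. Cells of every kind either received acidic bile salts, abbreviated ABS (20 min at pH 4.0 and 200 µM), with 6 h of recovery in complete medium, or stayed unexposed. OE33 was grown in RPMI1640 and FLO1 in DMEM, so line and medium cannot be told apart, and no group given acid without bile salts is among the 12. Stable transduction of a line selects cells before the exposure, so differences between shRNA groups also hold whatever differed between those populations.

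Homologous recombination copies the intact sister chromatid to mend a broken DNA end. The end is first trimmed to single strands, the BRCA proteins load the recombinase on it, and the recombinase paralogues and RAD54-type motors support the strand exchange. The Fanconi core complex adds ubiquitin to FANCD2 and FANCI at crosslinked DNA, which brings in nucleases held by SLX4, while ATM and ATR pass the signal on to CHEK2 and CHEK1. Many of these genes are transcribed mostly in S phase, and germline or somatic loss of several of them is known in cancer.

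The libraries held 20.7 to 38.0 M counts (M, 1e6) in OE33 and 21.8 to 40.7 M in FLO1, and the lowest count of any of the 35 genes in any library was 44. Levels are given as CPM, the count divided by the total of the library and multiplied by 1e6. APEX1 stood at 23.1, 25.9 and 22.8 CPM with shAPE1#1, at 21.2, 22.1 and 22.2 CPM with shAPE1#3 and at 198, 192 and 195 CPM with shControl in unexposed OE33. In unexposed FLO1 it stood at 25.3, 25.2 and 25.0 CPM with shAPE1#1, at 38.2, 37.1 and 36.1 CPM with shAPE1#3 and at 197, 198 and 195 CPM with shControl. After ABS, over both lines together, APEX1 was at 20.8 to 37.5 CPM in the shAPE1 libraries and at 171 to 202 CPM with shControl. In every library the level of the target thus fitted the label. Epithelial markers were high in OE33, with EPCAM between 462 and 650 CPM and KRT19 between 8142 and 13010 CPM. FLO1 kept KRT8, between 1476 and 2867 CPM, while EPCAM was between 0.347 and 1.70 CPM and CLDN7 between 0.190 and 0.958 CPM there. Of markers of other cell types, the summed CPM of 6 immune genes was 5.28 to 9.14 in OE33 and 3.09 to 5.71 in FLO1, that of 5 endothelial genes at most 0.782 and 1.73, and that of 6 fibroblast genes had a median of 4.06 in OE33 and 24.2 in FLO1 (highest 37.2), most of it COL1A1 in FLO1. A pair of libraries stood apart. In OE33 shControl after ABS, replicate 3 had a fibroblast sum of 20.6 CPM with none of the 6 genes at 0, against 4.10 and 5.30 CPM, with 5 and 4 genes at 0, in the other libraries of its group. In FLO1 shControl after ABS, replicate 2 had a dependence of counts on GC content of 0.357 log2 units per 10% GC, against -0.158 to 0.114 in the other 17 FLO1 libraries. Calls of the 35 genes that ended without either library are given with the values of both fits. Counts of the other gene lists named in the text are given again where they moved by over 1.5 times. No share of all genes called was taken for the fits without 1 library.

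**Figure D1:**
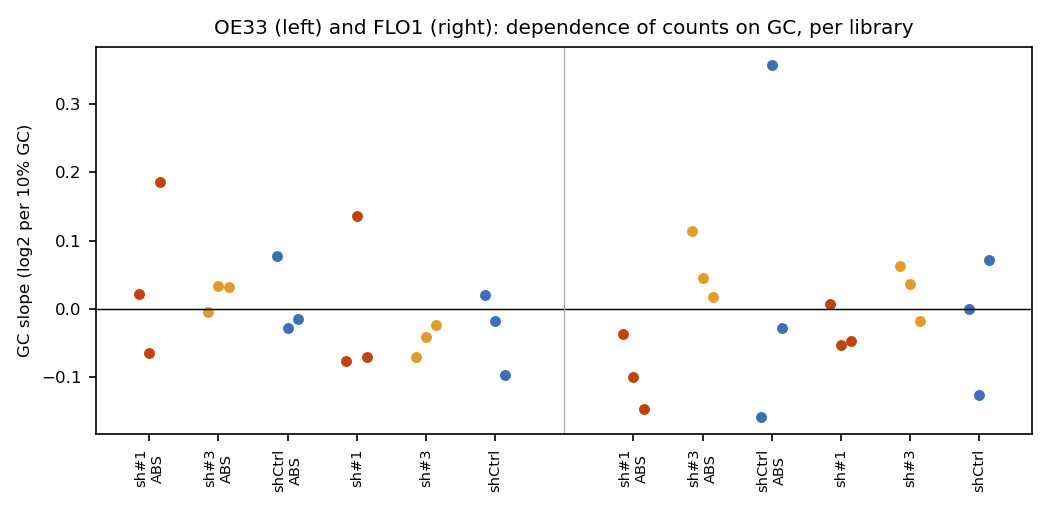
Slope of the counts on GC content (log2 units per 10% GC) for each of the 36 libraries, in OE33 on the left and FLO1 on the right, with shAPE1#1 in red, shAPE1#3 in orange and shControl in blue. One FLO1 shControl library after ABS lies at 0.357, above every other library; the highest in OE33 is 0.185.

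All 35 genes were expressed in both lines, between 1.79 and 155 CPM in single libraries, and none was switched on or off by the knockdown or the exposure. Within a line, the highest of the 6 group means was 1.13 to 1.51 times the lowest in OE33 (median 1.27) and 1.04 to 1.68 times the lowest in FLO1 (median 1.22). Per kilobase of exon, the median of the 35 levels was 4.92 CPM in OE33 shControl and 3.61 CPM in FLO1 shControl. On that scale FANCI was the highest and RAD54B the lowest in OE33, at 18.8 and 0.544 CPM, and FANCG the highest and RAD51B the lowest in FLO1, at 20.7 and 0.446 CPM. FSBP, itself at a mean of 0.055 CPM, overlaps 59.1% of the exons of RAD54B on the same strand. How reads shared by genes were counted is not given in the sources used here, so the level of RAD54B may be understated.

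Among the break sensors and resection enzymes, group means of the MRE11, RAD50 and NBN complex, which holds DNA ends, ran from 28.0 to 35.8 CPM in OE33 and from 33.3 to 38.98 CPM in FLO1 for MRE11, from 51.2 to 61.5 and from 67.5 to 70.5 CPM for RAD50, and from 41.9 to 57.5 and from 57.7 to 63.8 CPM for NBN. RBBP8, which encodes the nuclease cofactor CtIP, ran from 43.5 to 62.0 CPM in OE33 and from 40.8 to 54.8 CPM in FLO1. The exonuclease gene EXO1 ran from 41.2 to 48.2 CPM in OE33 and from 31.3 to 45.2 CPM in FLO1. The RecQ helicase genes BLM and WRN ran from 19.1 to 25.9 and from 16.3 to 20.4 CPM in OE33, and from 18.5 to 27.1 and from 25.0 to 28.2 CPM in FLO1. The ranges of the lines overlapped for MRE11, RBBP8, EXO1 and BLM, and lay lower in OE33 for RAD50, NBN and WRN. CPM here lacks the further scaling of libraries used in the fits. In the test between the lines given below, WRN was called lower in OE33, while RAD50 and NBN were not called.

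Among the BRCA genes, group means ran from 50.5 to 66.0 CPM in OE33 and from 27.3 to 35.6 CPM in FLO1 for BRCA1, and from 28.5 to 37.1 and from 20.0 to 22.6 CPM for its partner BARD1. BRCA2, the recombinase loader, ran from 30.9 to 37.9 CPM in OE33 and from 11.6 to 14.1 CPM in FLO1, and PALB2, which bridges BRCA1 and BRCA2, from 35.9 to 40.8 and from 12.7 to 16.5 CPM. The helicase gene BRIP1 ran from 12.4 to 15.7 CPM in OE33 and from 10.2 to 11.4 CPM in FLO1. For all 5 of these genes the lowest OE33 group mean was above the highest FLO1 group mean.

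Among the recombinase paralogues, RAD51B ran from 3.38 to 4.81 CPM in OE33 and from 2.79 to 3.34 CPM in FLO1, RAD51C from 18.9 to 23.0 and from 15.03 to 17.8 CPM, RAD51D from 26.5 to 35.3 and from 14.6 to 23.0 CPM, XRCC2 from 11.5 to 17.4 and from 16.97 to 18.2 CPM, and XRCC3 from 25.8 to 30.2 and from 23.8 to 39.9 CPM. The motor gene RAD54L ran from 18.8 to 26.9 CPM in OE33 and from 21.5 to 27.8 CPM in FLO1, and its relative RAD54B from 2.27 to 3.26 and from 3.26 to 4.27 CPM. Of these 7 genes, XRCC2 had the widest spread of group means in OE33, 1.51 times, and XRCC3 the widest in FLO1, 1.68 times.

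In the Fanconi core complex, FANCA ran from 45.5 to 51.7 CPM in OE33 and from 47.8 to 64.2 CPM in FLO1, FANCB from 3.42 to 4.33 and from 7.67 to 8.97 CPM, FANCC from 15.8 to 19.3 and from 35.01 to 37.4 CPM, and FANCE from 26.7 to 30.6 and from 13.3 to 20.6 CPM. FANCF ran from 16.0 to 18.5 CPM in OE33 and from 2.26 to 3.22 CPM in FLO1, FANCG from 52.3 to 66.1 and from 66.1 to 77.7 CPM, FANCL, the ubiquitin ligase, from 13.2 to 18.6 and from 6.29 to 7.67 CPM, and FANCM, the DNA translocase, from 11.1 to 13.5 and from 8.08 to 10.4 CPM. The core genes therefore split by line in both directions. Its substrates FANCD2 and FANCI ran from 28.0 to 34.8 and from 100 to 146 CPM in OE33, and from 41.6 to 48.1 and from 93.5 to 114 CPM in FLO1, and the nuclease scaffold gene SLX4 ran from 15.5 to 20.4 CPM in OE33 and from 12.3 to 19.6 CPM in FLO1.

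Of the checkpoint genes, ATM ran from 15.4 to 19.8 CPM in OE33 and from 36.6 to 45.0 CPM in FLO1, ATR from 48.6 to 63.1 and from 39.7 to 41.8 CPM, CHEK1 from 32.4 to 40.1 and from 43.1 to 48.6 CPM, CHEK2 from 15.4 to 22.7 and from 18.7 to 25.1 CPM, and TOPBP1, the activator of ATR, from 96.5 to 109 and from 88.3 to 97.8 CPM. Of the apical kinases, ATM was lower in every OE33 group than in any FLO1 group, and ATR was higher.

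**Figure D2:**
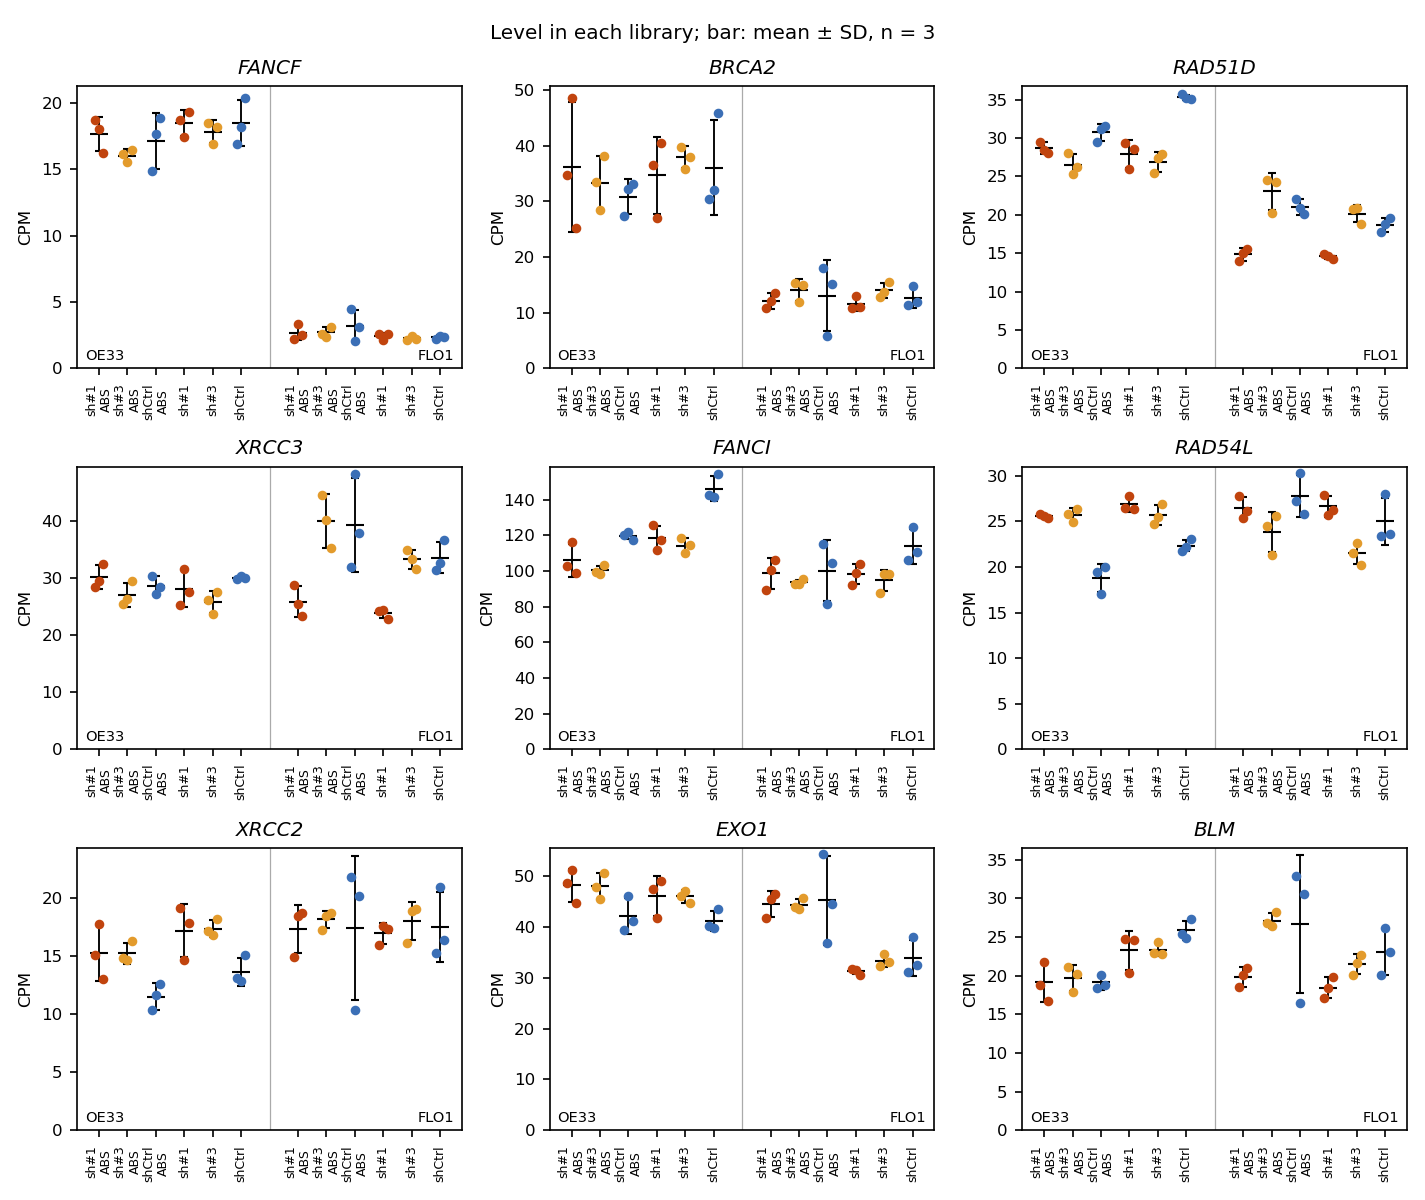
Level (CPM, linear axis from 0) of 9 of the genes in every library, with OE33 left and FLO1 right of the grey line; red is shAPE1#1, orange shAPE1#3 and blue shControl, and the bars give the mean ± SD of 3 libraries. FANCF and BRCA2 separate the lines, RAD51D and FANCI are highest in unexposed OE33 shControl, RAD51D and XRCC3 are low with shAPE1#1 in FLO1, and the FLO1 shControl group after ABS has the widest spread in XRCC2, EXO1 and BLM.

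The largest log2 fold changes among the 35 genes lay between the lines, although this did not hold for every gene, RAD54L being an exception. The first comparison asked how unexposed shControl cells of OE33 differed from those of FLO1. Of the 35 genes, 18 were higher and 6 lower in OE33 at an adjusted p under 0.05 (edgeR quasi-likelihood test, Benjamini-Hochberg adjustment over 18199 genes), where 37.6% of all genes tested were called higher and 39.9% lower. Being called was therefore common in this comparison for any gene. The median log2 fold change was 0.29 over the 35 genes and -0.06 over all genes. Of the 35 genes, 28 had a GC content below 49.7%, the median of genes with a mean over 5 CPM. Under correction for GC content the median over all genes was -0.17, and values of called genes under it are given below. In bulk libraries a smaller fraction of cells in S phase and less RNA per cell cannot be told apart, here and in every comparison after it.

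FANCF, the core complex adaptor, differed most. Its level was 16.9, 18.2 and 20.4 CPM in OE33, against 2.21, 2.47 and 2.36 CPM in FLO1. The groups were far apart, the lowest OE33 library standing several times above the highest FLO1 library, and the log2 fold change was 3.11 ± 0.15 (SE; adjusted p = 1.95e-20), an 8.61-fold difference. Across all 12 groups FANCF had the widest ratio of group means, 8.18, against a median of 1.66 for the 35 genes. FANCL, the ligase subunit, had 18.1, 19.0 and 18.7 CPM in OE33, against 7.001, 7.63 and 6.43 CPM in FLO1 (log2 fold change 1.53 ± 0.13, adjusted p = 1.44e-13). VRK2, whose exons overlap 18.7% of the exons of FANCL, was also higher in OE33 (1.86), and since the strand setting of the counting is not given in the sources used here, reads from the overlap cannot be assigned to either gene. FANCM and FANCE were higher in OE33 as well, by 0.87 and 0.72 on the log2 scale. After correction of the counts for GC content these were 0.30 and 0.95, and the call of FANCM was lost with the replicate block added (adjusted p = 0.0716).

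All 5 BRCA genes were called higher in OE33 without correction for GC content, with a median log2 fold change of 1.20. BRCA2 had 30.4, 32.0 and 45.9 CPM in OE33, against 11.4, 14.9 and 11.8 CPM in FLO1 (1.64 ± 0.21, adjusted p = 9.46e-09). PALB2 had 39.8, 40.9 and 41.7 CPM in OE33, against 14.9, 16.2 and 15.6 CPM in FLO1 (1.52 ± 0.10, adjusted p = 1.43e-16). BRCA1 had 63.0, 63.2 and 71.6 CPM in OE33, against 29.9, 36.5 and 27.9 CPM in FLO1 (1.20 ± 0.10, adjusted p = 4.18e-13). None of these 3 genes had overlapping libraries between the lines, and BRCA2 varied more than the other 2 within OE33. BARD1 and BRIP1 were higher by 0.85 and 0.61. Under GC correction BRCA2, PALB2, BRCA1 and BARD1 were still called, at 1.05, 1.16, 0.84 and 0.34, while BRIP1 was at 0.07 and was no longer called (adjusted p = 0.497).

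RAD51D, a recombinase paralogue, had 35.7, 35.2 and 35.1 CPM in OE33, against 17.8, 18.8 and 19.6 CPM in FLO1, with no overlap (1.05 ± 0.08, adjusted p = 2.76e-14). RAD51B and RAD51C were also higher in OE33 (0.66 and 0.56), as were ATR (0.73) and FANCI (0.50). Under GC correction RAD51D was at 1.14, ATR at 0.21 and FANCI at 0.15, all still called, and RAD51B was at 0.36 and lost its call with the replicate block added (adjusted p = 0.146). RAD51C lost its call under GC correction, at 0.18 (adjusted p = 0.0857). RBBP8 (0.49) and EXO1 (0.41) were called higher as well and lost their calls under that correction, RBBP8 at -0.01 and EXO1 at 0.08. BLM and TOPBP1 were called higher at 0.29 each and changed sign under that correction, to -0.19 and -0.14, and BLM lost its call with the replicate block alone (adjusted p = 0.0702), so no direction is given for these 2 genes.

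The other 6 called genes were lower in OE33. FANCB, encoded on the X chromosome and a partner of FANCL in the catalytic module, had 3.64, 3.07 and 3.88 CPM in OE33, against 8.18, 10.1 and 5.98 CPM in FLO1 (-1.07 ± 0.21, adjusted p = 2.01e-05). ATM had 17.8, 16.8 and 24.9 CPM in OE33, against 35.2, 43.0 and 41.2 CPM in FLO1 (-0.87 ± 0.17, adjusted p = 1.3e-05). FANCC had 18.2, 20.3 and 19.4 CPM in OE33, against 34.6, 36.7 and 37.0 CPM in FLO1 (-0.77 ± 0.08, adjusted p = 2.47e-10). In each of the 3, all OE33 libraries were below all FLO1 libraries. RAD54B (-0.43), FANCD2 (-0.36) and WRN (-0.35) were lower too. GC correction made these 6 differences larger, with FANCB at -1.64, ATM at -1.41 and WRN at -0.90, and the replicate block alone ended the call of RAD54B (adjusted p = 0.193). RAD54L and CHEK1 differed by -0.03 and -0.09 (adjusted p = 0.769 and 0.479), and APEX1 itself by 0.12 (adjusted p = 0.153).

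The mitotic genes measured beside them leaned to FLO1: of 25 genes of G2 and mitosis, 6 were higher and 16 lower in OE33, among them CDC25C (-2.08) and KIF20A (-1.70). Of 30 replication and S phase genes, 11 were higher and 12 lower, among them GINS1 (2.05), E2F2 (-2.11) and TYMS (-1.87). Of 51 other repair partners, 30 were higher and 16 lower, led by RMI2 (2.86) and BRCC3 (2.65) on one side and by FAAP24 (-2.39) and FAAP20 (-1.97), both accessory to the Fanconi core, on the other. Of 8 end-joining genes, 2 were higher and 4 lower, with PRKDC at -1.26. The part of growth state in the differences of the 35 genes was not tested.

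**Figure D3:**
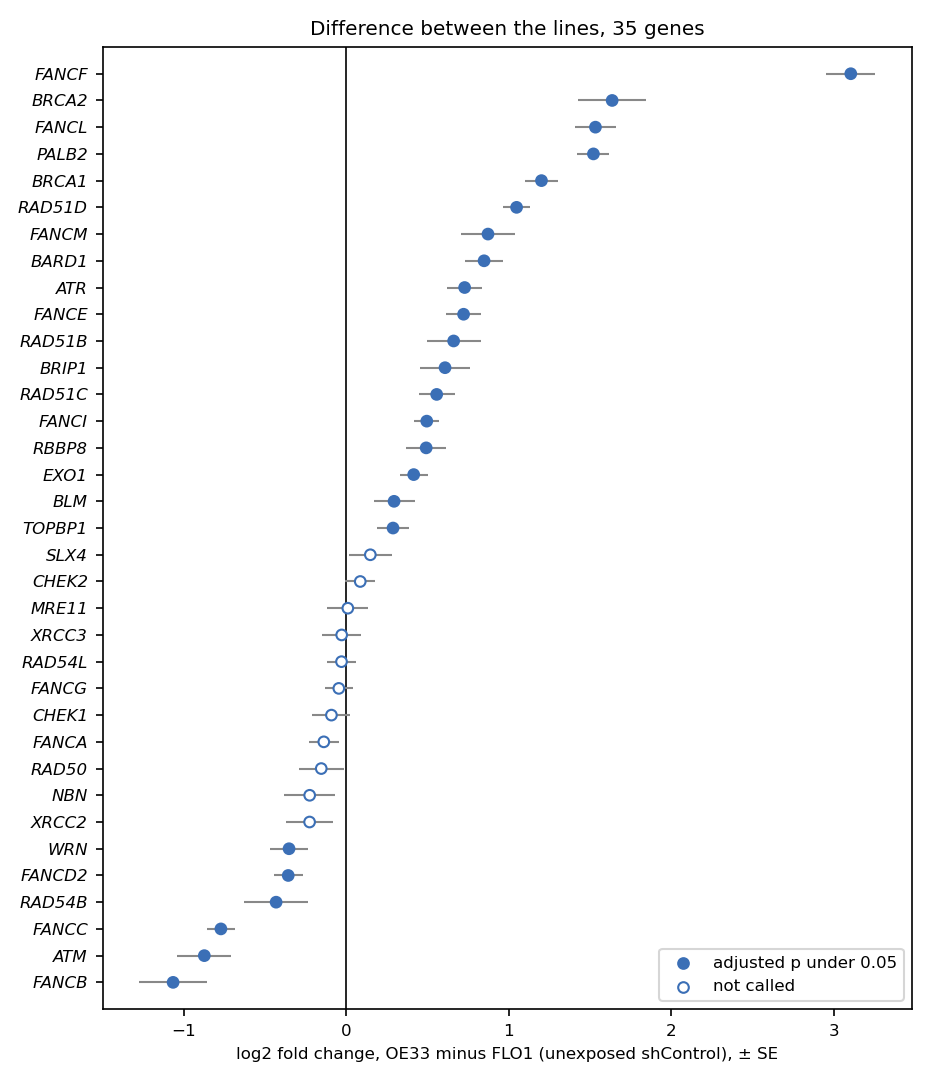
Log2 fold change ± SE of each of the 35 genes in unexposed shControl cells, OE33 minus FLO1, with filled points for an adjusted p under 0.05 and open points for the rest. FANCF at 3.11 stands clear of all others, followed by BRCA2, FANCL, PALB2, BRCA1 and RAD51D between 1.05 and 1.64, and FANCB, ATM and FANCC lie lowest.

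The window upstream of the start is shown for FANCF, which separates the lines, and for RAD54L and XRCC2, which rose with knockdown in OE33 as described further on. Each is the 250 bases before the RefSeq start in GRCh38.p14, 5′ to 3′ on the strand of the gene, with CCAAT, or ATTGG where it lies on the other strand, in capitals.
FANCF, chr11:22625824-22626073, minus strand: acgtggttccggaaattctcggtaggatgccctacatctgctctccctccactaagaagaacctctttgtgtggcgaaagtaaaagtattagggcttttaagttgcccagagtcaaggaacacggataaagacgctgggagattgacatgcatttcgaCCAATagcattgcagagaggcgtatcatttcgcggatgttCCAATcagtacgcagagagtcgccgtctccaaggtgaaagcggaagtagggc
RAD54L, chr1:46247438-46247687, plus strand: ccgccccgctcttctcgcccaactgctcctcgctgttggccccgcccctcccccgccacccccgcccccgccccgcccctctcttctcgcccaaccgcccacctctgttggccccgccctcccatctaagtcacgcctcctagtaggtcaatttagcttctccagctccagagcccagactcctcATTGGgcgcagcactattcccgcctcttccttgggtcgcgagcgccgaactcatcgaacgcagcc
XRCC2, chr7:152676142-152676391, minus strand: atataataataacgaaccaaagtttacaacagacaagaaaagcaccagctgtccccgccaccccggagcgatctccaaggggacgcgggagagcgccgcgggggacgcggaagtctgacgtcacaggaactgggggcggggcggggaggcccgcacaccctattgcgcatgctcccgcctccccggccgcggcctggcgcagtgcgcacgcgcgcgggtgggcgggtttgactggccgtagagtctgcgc
FANCF held 2 such motifs and 14 CpG, RAD54L 1 motif and 21 CpG, and XRCC2 none and 29 CpG. The table had a window for 31 of the 35 genes. CCAAT was present on either strand in 12 of the 31 (38.7%), against 34.2% of all 17347 windows. The letters of E2F sites (TTTCGCGC, TTTGGCGC, TTTCCCGC or TTTGCCGC, either strand) were in 2 (6.45%), against 3.45% of all, and those of the cell cycle homology region (TTTGAA, either strand) in 3 (9.68%), against 11.4%. No motif contains the letters of another. The 31 windows had a median of 21 CpG, against 16 in all windows. These are matches of letters, with no measurement of binding or methylation behind them.

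In OE33, knockdown of APEX1 came with small and partly opposed changes: RAD54L and XRCC2 were higher and FANCI, RAD51D and CHEK2 lower, all by less than 0.5 on the log2 scale. With shAPE1#1, 2 of the 35 genes rose and 7 fell in unexposed cells, where 8.24% of 15540 genes tested rose and 8.13% fell. With shAPE1#3, 2 rose and 4 fell, against 11.2% and 10.5% of all genes. The median over the 35 genes was -0.06 with shAPE1#1 and -0.04 with shAPE1#3, against 0.006 and -0.003 over all genes. Both comparisons use the same 3 shControl libraries, so their results are set side by side and are not independent. Between the shAPE1 groups themselves, shAPE1#3 minus shAPE1#1, none of the 35 genes was called by edgeR, none at an unadjusted p under 0.05 and none by DESeq2, and 0% of all 15540 genes was called by edgeR, with 8.03% at an unadjusted p under 0.05, while DESeq2 called 10 genes higher and 5 lower. Whether these groups carry different hairpins in OE33 could not be decided from the labels or the counts, so they are not treated as evidence from a pair of independent shRNAs.

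FANCI, which is clamped on DNA together with FANCD2, had 126, 112 and 118 CPM with shAPE1#1 and 119, 110 and 114 CPM with shAPE1#3, against 142, 142 and 155 CPM with shControl. The shAPE1 libraries all lay below the shControl libraries. The log2 fold change was -0.30 ± 0.06 with shAPE1#1 (SE; adjusted p = 0.0011) and -0.34 ± 0.06 with shAPE1#3 (adjusted p = 0.000365). POLG, which overlaps 5.9% of the exons of FANCI on the genome, was higher in both comparisons, by 0.27 and 0.22. Its partner FANCD2 was at 0.04 and 0.11 and was not called.

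RAD51D had 29.3, 25.9 and 28.5 CPM with shAPE1#1 and 25.5, 27.4 and 27.9 CPM with shAPE1#3, against 35.7, 35.2 and 35.1 CPM with shControl. Again the groups did not overlap, and the log2 fold change was -0.34 ± 0.08 (adjusted p = 0.0023) and -0.37 ± 0.08 (adjusted p = 0.000882). RAD51B, another paralogue, had 3.64, 3.89 and 2.61 CPM with shAPE1#1 and 3.87, 3.91 and 3.54 CPM with shAPE1#3, against 4.94, 4.90 and 4.60 CPM with shControl, and fell with shAPE1#1 (-0.51 ± 0.17, adjusted p = 0.036). The checkpoint kinase gene CHEK2 had 19.7, 16.6 and 20.3 CPM with shAPE1#1 and 17.2, 18.2 and 19.8 CPM with shAPE1#3, against 22.9, 20.7 and 24.6 CPM with shControl, and fell by 0.27 ± 0.09 and 0.28 ± 0.09 (adjusted p = 0.0439 and 0.0293). All shAPE1 libraries were below all shControl libraries for RAD51B and CHEK2, although the gap for CHEK2 was narrow.

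RAD54L, the motor that drives strand exchange, had 26.5, 27.8 and 26.3 CPM with shAPE1#1 and 24.7, 25.5 and 26.9 CPM with shAPE1#3, against 21.8, 22.2 and 23.0 CPM with shControl. It rose by 0.27 ± 0.08 (adjusted p = 0.0198) and 0.22 ± 0.08 (adjusted p = 0.045), with no overlap. LRRC41, which overlaps 25.1% of its exons, was at 0.03 and 0.09 and was not called. XRCC2, a paralogue that acts early in filament assembly, had 19.1, 14.6 and 17.9 CPM with shAPE1#1 and 17.1, 16.8 and 18.2 CPM with shAPE1#3, against 13.1, 12.9 and 15.1 CPM with shControl. It rose by 0.33 ± 0.11 and 0.37 ± 0.11 (adjusted p = 0.038 and 0.0194), although 1 shAPE1#1 library lay within the range of shControl.

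With shAPE1#1 in unexposed cells, BRCA1 had 58.5, 50.6 and 59.0 CPM, against 63.0, 63.2 and 71.6 CPM with shControl (-0.23 ± 0.07, adjusted p = 0.0309). BARD1, which forms a ligase with BRCA1, had 32.1, 23.5 and 33.0 CPM, against 35.8, 34.7 and 40.8 CPM (-0.33 ± 0.11, adjusted p = 0.0454), and ATR had 58.0, 47.1 and 50.1 CPM, against 60.4, 57.3 and 71.7 CPM (-0.29 ± 0.09, adjusted p = 0.0374). For BRCA1 and BARD1 the groups did not overlap, while 1 ATR library reached into the shControl range. The lowest library of BRCA1, BARD1 and ATR was shAPE1#1 replicate 2. Its dependence of counts on GC content was 0.135 log2 units per 10% GC, against -0.0758 and -0.0696 in replicates 1 and 3. The part of this dependence in their falls was not tested. With shAPE1#3, FANCG was called lower, at 50.7, 52.2 and 54.0 CPM against 66.6, 65.4 and 66.1 CPM with shControl (-0.32 ± 0.09, adjusted p = 0.00858), and BRCA1 was not (-0.17, adjusted p = 0.101). BRCA2, ATM and CHEK1 were within 0.09 of no change with either shRNA. With shAPE1#1, 3, 5 and 4 genes were called without shControl replicates 1, 2 and 3 in place of 9. When the fit held only the groups compared, 2 were called, where 13.2% of all genes were called, against 16.4% in the main fit. With shAPE1#3, 3 were called without shControl replicate 1 and 3 without shAPE1#3 replicate 1, in place of 6. With the replicate number as a block, BARD1 and XRCC2 with shAPE1#1 (adjusted p = 0.0599 and 0.0527) and RAD54L with shAPE1#3 (adjusted p = 0.0592) were no longer called. BARD1 and CHEK2 with shAPE1#1 were not called without shControl ABS replicate 3 (-0.33 and -0.27, adjusted p = 0.0511 and 0.0515).

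After ABS, the OE33 shAPE1 groups were again above shControl for RAD54L and XRCC2 and below it for FANCI. With shAPE1#1, 2 of the 35 genes rose and 2 fell (7.34% and 8.46% of all genes), and with shAPE1#3, 3 rose and 2 fell (8.75% and 9.31%). The median over the 35 genes was 0.03 and 0.04, against 0.003 and -0.004 over all genes. RAD54L had 25.8, 25.6 and 25.4 CPM with shAPE1#1 and 25.8, 24.9 and 26.4 CPM with shAPE1#3, against 19.4, 17.03 and 20.0 CPM with shControl. That gap was wider than the whole spread of any of the 3 groups, and the rise was 0.40 ± 0.08 (adjusted p = 0.000693) and 0.45 ± 0.08 (adjusted p = 0.000181). XRCC2 had 15.1, 17.8 and 13.03 CPM with shAPE1#1 and 14.9, 14.7 and 16.3 CPM with shAPE1#3, against 10.3, 11.6 and 12.6 CPM with shControl (0.36 ± 0.11 and 0.41 ± 0.11, adjusted p = 0.026 and 0.0113), with no overlap.

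FANCI after ABS had 103, 116 and 98.8 CPM with shAPE1#1 and 99.3, 98.5 and 103 CPM with shAPE1#3, against 120, 122 and 118 CPM with shControl, again with no overlap (-0.22 ± 0.06 and -0.25 ± 0.06, adjusted p = 0.0178 and 0.00546). CHEK2 was called lower with shAPE1#1, at 16.4, 14.5 and 15.4 CPM against 18.6, 18.04 and 17.8 CPM (-0.27 ± 0.09, adjusted p = 0.0465). With shAPE1#3, RAD51D was called lower, at 28.0, 25.4 and 26.2 CPM against 29.5, 31.2 and 31.6 CPM with shControl (-0.21 ± 0.08, adjusted p = 0.0499). RBBP8 was called higher with shAPE1#3, at 56.0, 52.2 and 55.1 CPM against 38.3, 44.6 and 47.7 CPM with shControl (0.32 ± 0.10, adjusted p = 0.0321). The groups did not overlap for these 3 calls. RAD51D with shAPE1#3 and CHEK2 with shAPE1#1 lost their calls in many fits: leaving out 1 of the 18 libraries at a time ended the call in 12 fits for RAD51D and in 13 for CHEK2. Without shControl ABS replicate 3, the library with the high fibroblast sum, RAD51D was at -0.20 (adjusted p = 0.131) and CHEK2 at -0.28 (adjusted p = 0.0916), and the other 7 calls after ABS were kept. For RAD51D the call also ended with other size factors, with no filter, with the replicate block (adjusted p = 0.0663) and with only the groups compared, and for CHEK2 with no filter and with only the groups compared. BRCA1, BRCA2, FANCD2, ATM and CHEK1 were not called with either shRNA after ABS, with log2 fold changes between -0.22 and 0.18. With shAPE1#1, 2 genes were called without replicate 1 of either ABS group and 1 without shControl ABS replicate 2, in place of 4. With shAPE1#3, 2 were called without shControl ABS replicate 1 and 2 without shAPE1#3 ABS replicate 3, in place of 5.

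The other lists in OE33 are read against all genes. Of these, 8.24% rose and 8.13% fell with shAPE1#1 in unexposed cells, and 11.2% and 10.5% with shAPE1#3. Of 51 other repair partners, 6 fell with shAPE1#1 and 9 with shAPE1#3 in unexposed cells and none rose, among them RECQL (-0.45 and -0.46), RPA2 with shAPE1#1 (-0.37) and EME1 with shAPE1#3 (-0.45). Of 30 replication genes, 1 rose and 2 fell with shAPE1#1 and 2 rose and 6 fell with shAPE1#3, with E2F1 at -0.33 and -0.34. Of 25 mitotic genes, 2 and 3 fell, with PTTG1, the securin gene, at -0.65 and -0.78. With shAPE1#3, 3 replication genes and 2 mitotic genes fell without shControl ABS replicate 3, in place of 6 and 3. Summed epithelial markers were at 18300 to 20910 CPM in the shAPE1 libraries, against 22350 to 24240 CPM with shControl, and the part of this difference in the changes of the 35 genes was not tested.

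**Figure D4:**
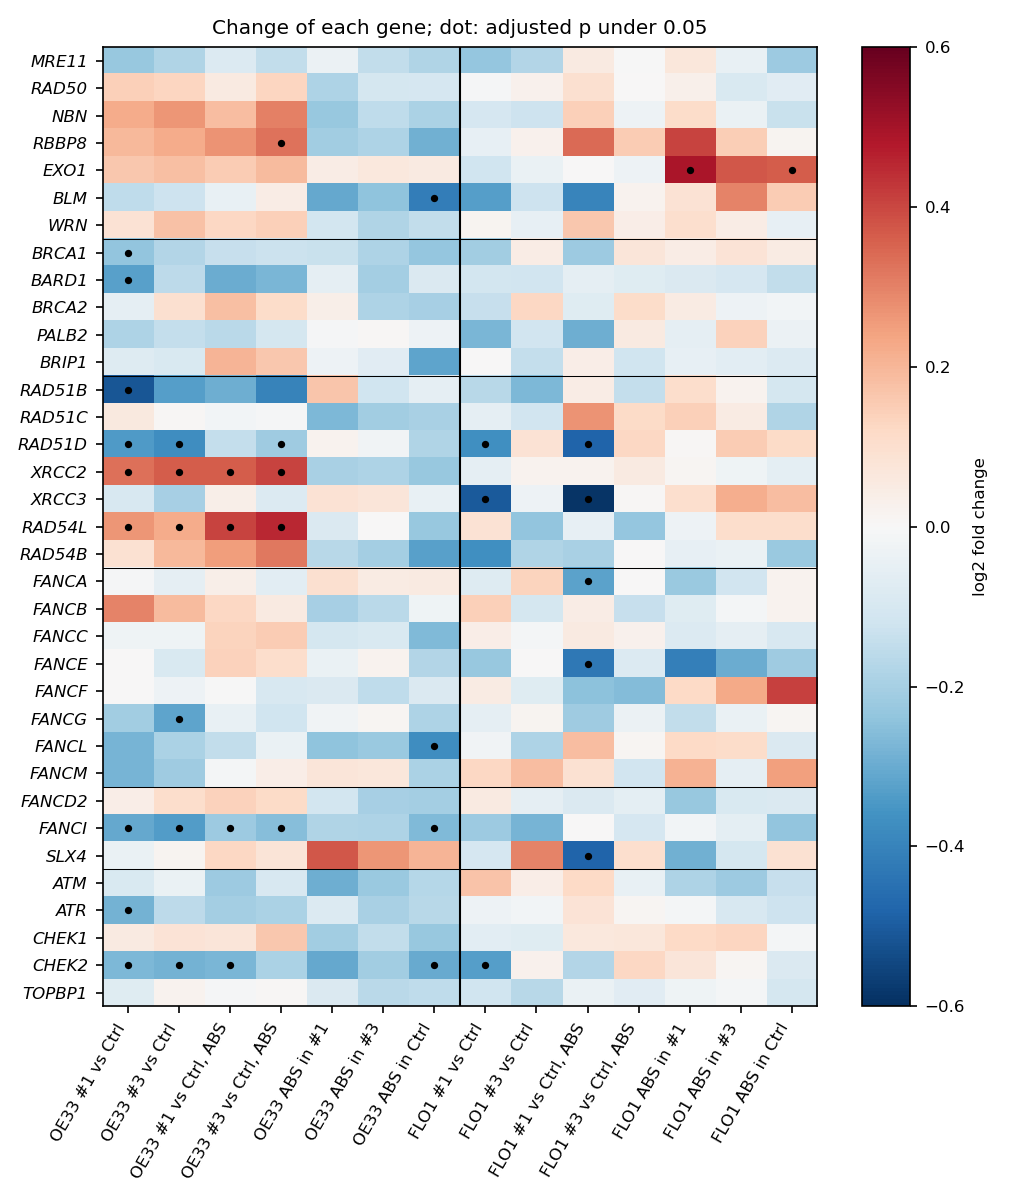
Log2 fold change (colour, from -0.6 to 0.6) of the 35 genes, ordered by role, in 14 comparisons, with OE33 left and FLO1 right of the black line; #1 and #3 are the shAPE1 groups, Ctrl is shControl, and a dot marks an adjusted p under 0.05. RAD54L, XRCC2 and FANCI carry dots in all 4 knockdown columns of OE33, RAD51D and XRCC3 in both shAPE1#1 columns of FLO1, and the shAPE1#3 knockdown columns of FLO1 carry none.

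In FLO1 RAD51D and XRCC3, both recombinase paralogues, were lower with shAPE1#1 in unexposed cells and after ABS, with CHEK2 called in unexposed cells and FANCA, FANCE and SLX4 after ABS. In unexposed cells 3 of the 35 genes fell with shAPE1#1 (2.22% of 16868 genes tested fell) and none rose (4.52% of all genes); 7 genes (20.0%) had an unadjusted p under 0.05, against 19.9% of all genes. With shAPE1#3 none of the 35 was called by edgeR (0.788% of all genes were) and none by DESeq2 (1.54%). An unadjusted p under 0.05 was found for 3 (8.57%), against 9.19% of all genes. There the log2 fold changes lay between -0.28 ± 0.10 (FANCI) and 0.30 ± 0.14 (SLX4), and the 6 genes followed throughout, BRCA1, BRCA2, RAD54L, FANCD2, ATM and CHEK1, between -0.24 and 0.12; without shControl ABS replicate 2, 1 of the 35 was called. APEX1 fell by 2.97 ± 0.09 with shAPE1#1 and by 2.42 ± 0.08 with shAPE1#3.

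XRCC3, which works with RAD51C late in strand exchange, had 24.1, 24.3 and 22.9 CPM with shAPE1#1 and 34.9, 33.4 and 31.6 CPM with shAPE1#3, against 31.4, 32.6 and 36.7 CPM with shControl. The shAPE1#1 libraries stood apart from the rest, by -0.50 ± 0.14 from shControl (SE; adjusted p = 0.0272). RAD51D had 14.9, 14.6 and 14.3 CPM with shAPE1#1 and 20.7, 20.8 and 18.8 CPM with shAPE1#3, against 17.8, 18.8 and 19.6 CPM with shControl (-0.37 ± 0.09, adjusted p = 0.0195 for shAPE1#1; 0.09 for shAPE1#3). CHEK2 had 19.1, 18.4 and 18.7 CPM with shAPE1#1 and 24.8, 24.7 and 22.9 CPM with shAPE1#3, against 24.0, 23.7 and 22.7 CPM with shControl (-0.33 ± 0.10, adjusted p = 0.0424 for shAPE1#1; 0.02 for shAPE1#3). For all 3 genes the shAPE1#1 libraries were below both other groups, which overlapped each other. The exons of XRCC3 overlap KLC1 on the opposite strand over 76.7% of their length, and KLC1 was at -0.04 and was not called. None of the 35 genes was called without any 1 of the shAPE1#1 libraries or without shControl replicate 3, 1 was called without shControl replicate 1, and 6 without shControl ABS replicate 2. CHEK2 was no longer called with the replicate block (adjusted p = 0.0715).

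The difference between the shRNAs was tested directly in unexposed FLO1. Relative to shAPE1#1, shAPE1#3 cells had higher RAD51D (0.46 ± 0.09, adjusted p = 0.00217), XRCC3 (0.48 ± 0.14, adjusted p = 0.024) and CHEK2 (0.36 ± 0.10, adjusted p = 0.0176) and lower RAD54L (-0.32 ± 0.10, adjusted p = 0.0406), where 4.66% of all genes were higher and 7.52% lower. RAD54L had 21.6, 22.6 and 20.2 CPM with shAPE1#3, against 27.9, 25.8 and 26.3 CPM with shAPE1#1. APEX1 was higher with shAPE1#3 too (0.55 ± 0.08, adjusted p = 9.59e-05), so the groups also differed in the depth of the knockdown. Without shAPE1#1 replicate 1, 2 of the 35 genes were called, without shAPE1#1 replicate 2 or 3 or shAPE1#3 replicate 1 or 2, 1, and without shControl ABS replicate 2, 7; RAD51D was called in each of these fits. RAD54L was no longer called with the replicate block (adjusted p = 0.0636).

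After ABS in FLO1, 5 of the 35 genes were lower with shAPE1#1 than with shControl and none was higher, where 8.31% of all genes were lower and 8.26% higher. RAD51D had 13.9, 15.1 and 15.5 CPM with shAPE1#1 and 24.6, 20.3 and 24.3 CPM with shAPE1#3, against 22.1, 20.8 and 20.1 CPM with shControl. The shAPE1#1 libraries were again apart from both other groups (-0.48 ± 0.09, adjusted p = 0.00151). XRCC3 had 28.7, 25.5 and 23.2 CPM with shAPE1#1, against 31.9, 48.1 and 37.8 CPM with shControl (-0.59 ± 0.14, adjusted p = 0.00559), the 48.1 CPM being the library with the steep GC dependence. Without that library RAD51D and XRCC3 were still called, at -0.45 (adjusted p = 0.00194) and -0.38 (adjusted p = 0.0186). Without shAPE1#1 ABS replicate 1, 3 of the 35 genes were called. None was called in a fit of only the groups compared, where the share of all genes called was 2.66%, against 16.6% in the main fit.

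FANCE, which docks FANCD2 on the core complex, had 13.7, 13.8 and 12.4 CPM with shAPE1#1, against 18.1, 20.0 and 16.4 CPM with shControl (-0.43 ± 0.13, adjusted p = 0.0245). SLX4 had 8.99, 13.7 and 14.2 CPM, against 16.9, 20.2 and 15.03 CPM (-0.48 ± 0.14, adjusted p = 0.0248), and FANCA had 42.1, 50.5 and 50.8 CPM, against 54.1, 68.0 and 59.3 CPM (-0.32 ± 0.10, adjusted p = 0.0294). No libraries overlapped for these 3 genes, but without shControl ABS replicate 2 their adjusted p was 0.0783, 0.0996 and 0.14, with log2 fold changes of -0.32, -0.32 and -0.19. ZNF276, which overlaps 23.6% of the exons of FANCA, was called lower in the same comparison (-0.36), and these reads cannot be told apart. The 5 called genes had a GC content of 52.8 to 61.1%, against a median of 42.2% for the 35 genes. BRCA1 (-0.22), BRCA2, RAD54L, FANCD2, ATM and CHEK1 were not called.

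With shAPE1#3 after ABS, none of the 35 genes was called by edgeR (0.783% of all genes were) and none by DESeq2 (1.48%). An unadjusted p under 0.05 was found for 1 (2.86%), against 8.77% of all genes. The log2 fold changes lay between -0.26 (FANCF) and 0.15 (RBBP8). Replication genes moved beside the 35 genes with shAPE1#1 after ABS: 1 of 30 rose and 11 fell, among them E2F2 (-0.65), MCM2 (-0.56), E2F1 (-0.54) and MCM5 (-0.54). Of 51 other repair partners 6 fell, among them RAD9A (-0.60) and RECQL4 (-0.55), as did 2 of 25 mitotic genes, CDC20 (-0.37) and PLK1 (-0.30). Without shControl ABS replicate 2, 1 replication gene rose and 7 fell (E2F2 at -0.52, MCM2 at -0.38, E2F1 at -0.33 and MCM5 at -0.30), 10 repair partners fell, and of the mitotic genes 2 fell, with PLK1 no longer among them (-0.14). In unexposed cells with shAPE1#1, 3 replication genes fell (E2F2 at -0.44, TYMS at -0.32 and ORC1 at -0.29) and no gene of the other 3 lists was called by edgeR. Without the same library, which is in the fit but in neither of the groups compared, 10 replication genes fell, 1 repair partner rose and 4 fell, and 5 mitotic and 2 end-joining genes fell. Summed epithelial markers were at 3710 to 4656 CPM with shAPE1#1 in FLO1, against 2430 to 3067 CPM in the other FLO1 libraries, and the part of this was not tested.

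After ABS, BLM, FANCL, FANCI and CHEK2 were lower in OE33 and EXO1 was higher in FLO1. In OE33 shControl cells 4 of the 35 genes were lower 6 h after ABS and none was higher, where 2.51% of all genes were lower and 5.89% higher. The log2 fold change was below 0 for 32 of the 35 genes, with a median of -0.19, against -0.005 over all genes tested, and 14 genes (40.0%) had an unadjusted p under 0.05, against 22.6% of all genes. BLM, a helicase that dissolves recombination intermediates, had 18.4, 20.2 and 18.8 CPM after ABS, against 25.4, 24.9 and 27.3 CPM unexposed (-0.41 ± 0.09, adjusted p = 0.00535). FANCL had 12.4, 14.5 and 15.5 CPM after ABS, against 18.1, 19.0 and 18.7 CPM unexposed (-0.37 ± 0.10, adjusted p = 0.0249). The exposed and unexposed libraries did not overlap in either gene.

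FANCI had 120, 122 and 118 CPM after ABS, against 142, 142 and 155 CPM unexposed (-0.27 ± 0.06, adjusted p = 0.00772), and CHEK2 had 18.6, 18.04 and 17.8 CPM after ABS, against 22.9, 20.7 and 24.6 CPM unexposed (-0.30 ± 0.09, adjusted p = 0.0401). Neither gene had overlapping groups. The unexposed shControl libraries are those used for the knockdown comparison, so the falls of FANCI and CHEK2 with knockdown and with ABS share them. BRCA1 was at -0.23 (adjusted p = 0.0518), RAD54L at -0.23 (adjusted p = 0.0797) and CHEK1 at -0.23 (adjusted p = 0.159), none of them called. SLX4 was the highest at 0.21. Without shControl replicate 1 or 3, or shControl ABS replicate 1 or 2, 2 genes were called in place of 4. Without shControl ABS replicate 3, BLM (-0.40), FANCL (-0.44) and FANCI (-0.25) were kept and CHEK2 was not called (-0.29, adjusted p = 0.133).

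In OE33 shAPE1 cells none of the 35 genes was called after ABS by edgeR, where 4.73% of all genes were called with shAPE1#1 and 2.26% with shAPE1#3. With shAPE1#1, 7 had an unadjusted p under 0.05 (20.0%, against 20.3% of all genes) and DESeq2 called 4 (7.57% of all genes). Left-out fits of edgeR called 4 without shAPE1#1 replicate 2 and 2 without shAPE1#1 ABS replicate 2. They called 1 without shAPE1#1 replicate 1 or shAPE1#3 ABS replicate 2 or 3. With shAPE1#3, 8 had an unadjusted p under 0.05 (22.9%, against 15.6% of all genes) and DESeq2 called none (4.07% of all genes). BLM was at -0.31 ± 0.09 (adjusted p = 0.0608) with shAPE1#1 and -0.24 ± 0.09 (adjusted p = 0.204) with shAPE1#3. The medians over the 35 genes were -0.09 and -0.15. The test of the difference itself, the interaction of ABS with each shRNA, called none of the 35 genes by edgeR or DESeq2. Of all genes, edgeR called 0% with shAPE1#1 and 0.0129% with shAPE1#3, and DESeq2 0.0644% and 0.0579%. None of the 35 had an unadjusted p under 0.05, against 3.58% and 3.97% of all genes. The response to ABS was thus not shown to depend on the knockdown. The replication genes leaned the same way as the 35 genes in OE33 shControl cells: 13 of 30 fell and none rose, with a median of -0.21 and with POLE2 (-0.49), GINS2 (-0.44) and MCM6 (-0.41) among them. Of 51 other repair partners 7 fell, led by UBE2T (-0.43), the ubiquitin-conjugating enzyme of the Fanconi pathway. No mitotic gene of 25 was called by edgeR (median -0.10). Without shControl ABS replicate 3, 9 replication genes fell (median -0.22, with POLE2 at -0.59, GINS2 at -0.46 and MCM6 at -0.40) and 1 repair partner fell, UBE2T (-0.42). Whether fewer cells in S phase had a part in the values of the 35 genes was not tested.

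In FLO1, EXO1, the exonuclease, was the gene called after ABS. It had 41.7, 45.5 and 46.4 CPM after ABS, against 31.8, 31.5 and 30.6 CPM unexposed, in shAPE1#1 cells (0.49 ± 0.10, adjusted p = 0.00403). In shAPE1#3 cells it had 43.9, 43.5 and 45.7 CPM after ABS, against 32.3, 34.6 and 33.1 CPM unexposed (0.37 ± 0.10, adjusted p = 0.0508). In shControl cells it had 54.3, 36.9 and 44.5 CPM after ABS, against 31.1, 38.0 and 32.6 CPM unexposed (0.36 ± 0.10, adjusted p = 0.0445). The groups were apart in both shAPE1 populations and overlapped in shControl, where the 36.9 CPM after ABS is the library with the steep GC dependence. With the replicate block EXO1 was not called in shControl (adjusted p = 0.0884).

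Thus 1 of the 35 genes was called in shControl (2.48% of all genes were higher and 0.516% lower) and 1 in shAPE1#1 (2.94% and 2.07%). In shAPE1#3 edgeR called none (1.81% of all genes) and DESeq2 called 1 (2.95% of all genes). There 2 had an unadjusted p under 0.05 (5.71%, against 11.6% of all genes). Without shControl replicate 2 of the ABS group, EXO1 was at 0.47 in shControl (adjusted p = 8.73e-04) and 3 of the 35 genes were called; without any 1 of 15 other FLO1 libraries none was. In shAPE1#1 cells 3 were called without shControl ABS replicate 1 or 2. In shAPE1#3 cells 2 were called without shControl ABS replicate 2, and 1 without shControl ABS replicate 1, shControl replicate 2 or shAPE1#1 ABS replicate 1. In shControl, BRCA1, BRCA2, RAD54L, FANCD2, ATM and CHEK1 were between -0.14 and 0.10. The interaction of ABS with either shRNA called none of the 35 genes by edgeR (0% of all genes) and none by DESeq2. Of all genes, DESeq2 called 0.166% with shAPE1#1 and 0.00593% with shAPE1#3. None of the 35 had an unadjusted p under 0.05, against 9.57% and 2.02% of all genes. CDC6, a replication licensing factor, was higher after ABS with shAPE1#1 (0.52), with shAPE1#3 (0.47) and with shControl (0.53), while 5 of 25 mitotic genes were lower in shControl, among them CCNB1 (-0.46) and CCNA2 (-0.42). Without shControl ABS replicate 2, CDC6 was at 0.61 in shControl and 6 mitotic genes were lower there, with CCNB1 at -0.37 and CCNA2 at -0.34.

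The responses of the lines were then compared directly. For ABS in shControl cells, OE33 minus FLO1, edgeR called none of the 35 genes (1.73% of all genes) and DESeq2 called 1 (3.07%). An unadjusted p under 0.05 was found for 5 (14.3%), against 12.2% of all genes. BLM differed most, by -0.57 ± 0.18 (adjusted p = 0.106), and EXO1 by -0.32 ± 0.12 (adjusted p = 0.22), so neither was shown to respond differently in the lines. Without FLO1 shControl replicate 2 of the ABS group, 5 genes were called lower. In that fit 2 of 51 other repair partners and 3 of 30 replication genes were called lower, and 3 of 25 mitotic genes higher. The share of all genes called was not taken there, so the 5 are not read as a result particular to the 35 genes. For the mean effect of both shRNAs in unexposed cells, edgeR called none of the 35 (6.37% of all genes) and DESeq2 called 1 (8.23%). An unadjusted p under 0.05 was found for 5 (14.3%), against 18.5% of all genes. In the edgeR fit RAD54L was at 0.30 ± 0.11 (adjusted p = 0.106) and RAD51D at -0.24 ± 0.10 (adjusted p = 0.17). Without the same library 1 gene was called. CDC6, from the replication list, did differ in its response to ABS (-0.83, adjusted p = 7.64e-07, and -0.89 without FLO1 shControl ABS replicate 2), and APEX1 in its response to the shRNAs (-0.41, adjusted p = 0.00562).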

How the data were processed

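RNA-seq of 36 libraries in 12 groups of 3 was used. The authors deposited raw counts per Ensembl gene; per the submitters' processing notes, Trimmomatic 0.36, STAR 2.5.2b, featureCounts and Subread 1.5.2 were used with GRCh38. The annotation release, strand setting and treatment of multi-mapping reads are among what the labels leave unstated. Of 57500 IDs, 56898 matched GENCODE 29; the others held 0.0183% of counts. CPM is the count over the library total, times 1e6. Each line was fitted over its 18 libraries, and both lines over 36, with edgeR 4.0.16 in R 4.3.3 (TMM, filterByExpr, robust quasi-likelihood test, Benjamini-Hochberg over all genes, call under 0.05). The filter kept all 35 genes in each line. DESeq2 1.42.0 and other settings are given in the closing section. Scripts were tested on simulated data. All 35 genes are named once with their range; values are given for genes called in a comparison, with BRCA1, BRCA2, RAD54L, FANCD2, ATM and CHEK1 in each, and for up to 4 called genes of each other list. The genes and lists were chosen with earlier results of these data known. Replicate numbers showed no clear pairing of the libraries, and the main fits used no block. The labels call the libraries biological replicates; p-values measure the spread between them.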

Additional observations from a re-analysis of the deposited data

Results flagged for a closer look

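In unexposed FLO1 the effects of the 2 shRNAs on 4 of the 35 genes differed by a direct test, shAPE1#3 minus shAPE1#1 (edgeR quasi-likelihood test, adjusted p under 0.05). Of all genes tested, 4.66% were called higher and 7.52% lower, so the count is not particular to the 35 genes. Without 1 library, 1 to 7 of the 35 were called, and RAD54L was no longer called with the replicate block. RAD51D differed by 0.46, XRCC3 by 0.48 and CHEK2 by 0.36 on the log2 scale, each higher with shAPE1#3 in 3 of 3 libraries. RAD54L differed by -0.32 and was lower with shAPE1#3 in 3 of 3 libraries.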

How the results depend on the processing

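Of 66 calls of a gene in a comparison, 26 were kept under every alternative and without any single library; over the fits without 1 library, 1160 of 1332 were kept, 172 lost and 0 reversed. Under the other alternatives 378 of 438 were kept and 54 lost. The 6 reversals were in OE33 minus FLO1: under GC correction RBBP8 was -0.012, BLM -0.1896 and TOPBP1 -0.1369, and under GC correction with the replicate block, added after seeing the data, -0.006, -0.1865 and -0.0872; the median of all genes was then -0.17 and -0.19, against -0.06. The causes were not tested. Calls of OE33 minus FLO1 lost under GC correction were those of RBBP8, EXO1, BRIP1 and RAD51C, and with the block also those of RAD51B and FANCM.

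Counts of the 35 genes moved as follows. Fits of only the groups compared moved the share of all genes called as well. For shAPE1#1 unexposed it was 13.2% in OE33 and 16.0% in FLO1, from 16.4% and 6.74%. For shAPE1#1 after ABS it was 12.2% and 2.66%, from 15.8% and 16.6%. For shAPE1#3 unexposed it was 32.1% and 2.57%, from 21.7% and 0.788%. For FLO1 shAPE1#3 minus shAPE1#1 it was 34.8%, from 12.2%. With no filter, shAPE1#1 unexposed was at 7.2% and 3.54%. For FLO1 shAPE1#3 unexposed, GC correction called 3.05% of all genes, or 2.58% with the replicate block added, from 0.788%. GC correction also raised the share of all genes called, to 23.6% from 16.4% for OE33 shAPE1#1 unexposed, 29.4% from 21.7% for OE33 shAPE1#3 unexposed, 22.9% and 25.7% from 15.8% and 18.1% for both after ABS, 14.9% from 8.4% for ABS in OE33 shControl, 16.8% and 24.9% from 6.74% and 16.6% for FLO1 shAPE1#1 unexposed and after ABS, 22.6% from 12.2% for FLO1 shAPE1#3 minus shAPE1#1, 14.1% and 6.69% from 5.01% and 1.81% for ABS in FLO1 shAPE1#1 and shAPE1#3, and between lines to 5.13% from 1.73% for ABS and 12.5% from 6.37% for the knockdown, so the counts of the 35 are read against these. For OE33 knockdown, shAPE1#1 unexposed (9) gave 5 with no filter, 16 with GC correction, with or without the replicate block, 2 with only the groups compared and 3 to 10 without 1 library; shAPE1#3 unexposed (6) gave 11, 11, 11 and 3 to 6 in the last 4 of these; shAPE1#1 after ABS (4) gave 8, 8, 1 and 1 to 5; shAPE1#3 after ABS (5) gave 8 with GC correction either way and 2 to 7 without 1 library. For FLO1 knockdown, shAPE1#1 unexposed (3) gave 1 with no filter, 7 with GC correction, 6 with the block added, 5 with only the groups compared and 0 to 6 without 1 library; shAPE1#3 unexposed (0) gave 1, 1, 1 and 0 to 1; shAPE1#1 after ABS (5) gave 12, 12, 0 and 3 to 7; shAPE1#3 minus shAPE1#1 (4) gave 8, 9, 10 and 1 to 7. For ABS in OE33 shControl (4), GC correction gave 9, or 8 with the block added, and only the groups compared gave 7. Without 1 library 2 to 6 were called. Of all genes, only the groups compared called 14.7%, from 8.4%. In OE33 shAPE1#1 (0), no filter gave 1, GC correction 1, or 2 with the block, and DESeq2 4. Without 1 library 0 to 4 were called. Of all genes there, no filter called 2.65%, GC correction 9.51%, or 10.4% with the block, and DESeq2 7.57%, from 4.73%. For ABS in FLO1, shControl (1) gave 0 with no filter, with the replicate block and with only the groups compared. Of all genes there, 1.78%, 2.28% and 0.661% were called, from 3.0%. Without 1 library 0 to 3 were called. In shAPE1#1 (1), no filter gave 2 (3.08% of all genes), GC correction either way 5 and DESeq2 3 (7.43%). Only the groups compared gave 4 (14.4%, from 5.01%), and 1 to 3 were called without 1 library. In shAPE1#3 (0), DESeq2's size factors in edgeR gave 1 (1.8% of all genes), GC correction either way 3 and DESeq2 1 (2.95%). Only the groups compared gave 2 (5.73%, from 1.81%), and 0 to 2 were called without 1 library. Between lines, the ABS difference (0) gave 4 and 3 with GC correction without and with the block, 1 with DESeq2 and 0 to 5 without 1 library; the knockdown difference (0) gave 5, 5, 1 and 0 to 1; OE33 minus FLO1 (24) kept 21 to 24 calls without 1 library. Correlations of same-numbered libraries had a median of 0.039 in OE33 and 0.066 in FLO1, with 21 of 45 over 0.1 in each. Those of libraries with different numbers had a median of 0.063 in OE33 (41 of 90 over 0.1) and -0.022 in FLO1 (36 of 90). The numbers thus gave no clear pairing, although in FLO1 the same-numbered median was the higher. The replicate block gave 4 and 7 calls for OE33 shAPE1#1 after ABS and unexposed, and 5 and 2 for FLO1. It gave 4 and 5 for OE33 shAPE1#3 and 3 for FLO1 shAPE1#3 minus shAPE1#1. Each call lost is named beside its result.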
